A study of Drosophila melanogaster with 2 samples.

Results

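Translation initiation and elongation factor genes are described here by the peaks that chromatin immunoprecipitation followed by sequencing (ChIP-seq) of GFP-tagged Nemo left at their promoters. The members are the protein-coding genes whose symbols begin with eIF or eEF in the Ensembl annotation of assembly BDGP6, which gave 52 of 13968 protein-coding genes. The rule used names only, and no measured value. The chromatin came from whole Drosophila melanogaster embryos of mixed sex aged 0 to 24 h, of the strain nmo-GFP, a transgenic line with a C-terminal GFP on nmo, and it was precipitated with an antibody against GFP. There is 1 group of 2 samples, biological replicates 2 and 3, so the labels imply no comparison between groups. Each replicate list and the pooled list held 30000 peaks. The list kept for the reproducibility of peak ranks between replicates (irreproducible discovery rate, IDR) held 9299, all of them also in the pooled list. Whole embryos mix many cell types, and no untagged or mock precipitation was analysed here.

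Nemo is a protein kinase related to MAP kinases, with roles in planar polarity and Wnt signalling. The factors studied here carry ribosomes through translation. eIF2 brings the initiator tRNA to the small ribosomal subunit and is recharged with GTP by eIF2B. The eIF4 factors bind and unwind the capped mRNA end, eIF3 scaffolds the initiation complex, and eIF1, eIF1A, eIF5 and eIF5B govern start codon choice and joining of the large subunit. eEF1 then delivers aminoacyl tRNAs, and eEF2 moves the ribosome along the mRNA. Most of these factors serve every growing cell, while some members are duplicated copies, among which eIF4E3 and eIF4G2 are known from male germ cells.

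Most translation factor genes had a Nemo peak at a promoter. An IDR summit lay within 1000 bp of a transcription start site (TSS) of 36 of the 52 members (69.2%, exact 95% interval 54.9 to 81.3), beside 43.8% of all protein-coding genes. Within 500 bp it was 35 members (67.3%), beside 39.8%. The intervals cover the counting of genes only, and genes are not replicates. The shares were also 92.5% of 93 cytoplasmic ribosomal protein genes and 75.8% of 33 aminoacyl tRNA synthetase genes, and differences between these lists were not tested. With all pooled peaks 43 members (82.7%) had a summit, beside 61.8% of all coding genes.

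**Figure D1:**
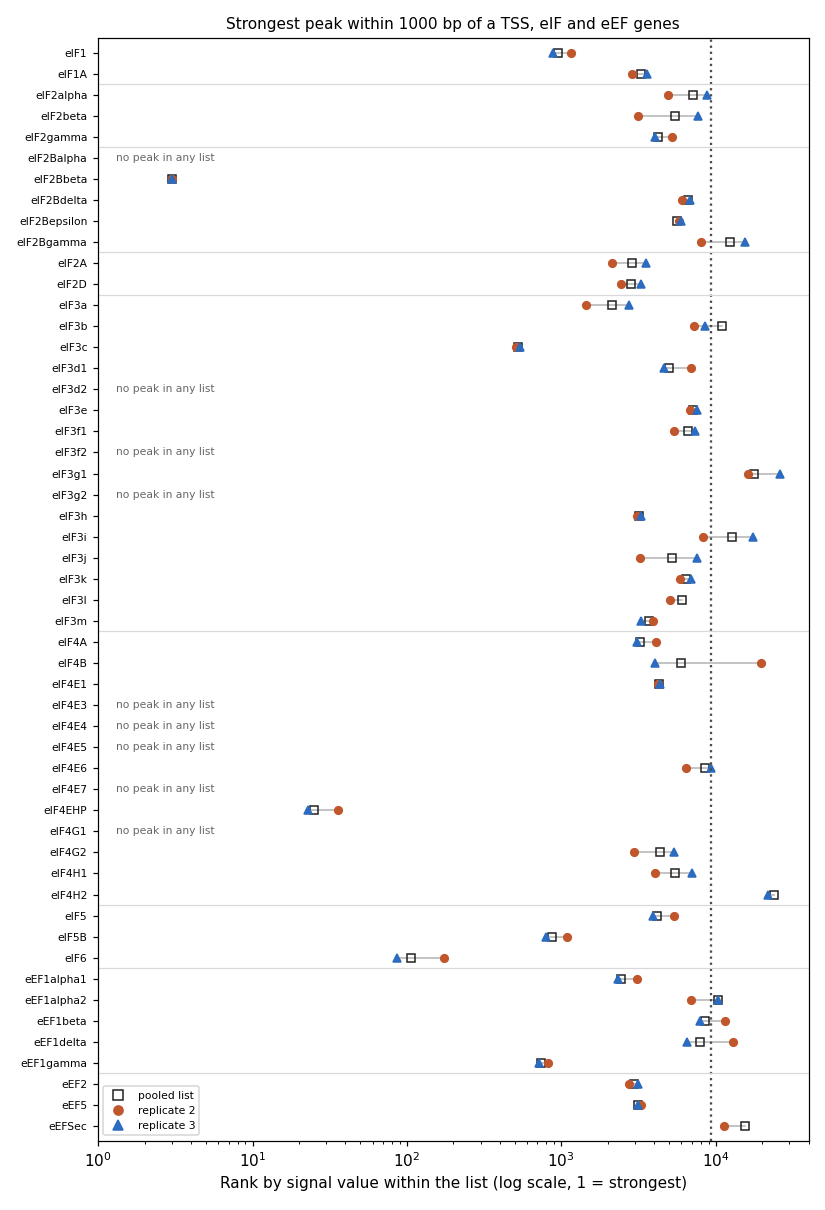
Rank by signal value (log scale, 1 is the strongest) of the strongest peak within 1000 bp of a TSS of each of the 52 members, in the pooled list (squares), replicate 2 (circles) and replicate 3 (triangles), with role groups split by grey lines. The dotted line marks rank 9299, the length of the IDR list; eIF2Bbeta, eIF4EHP and eIF6 stand at the strong end in every list, and 9 members have no peak in any list.

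The peaks were of ordinary strength. Column 7 of the deposited lists gives a signal value per peak on the scale of the authors' peak caller, and it is the authors' value, compared only within a list. The 36 strongest member summits had a median signal value of 361 (quartiles 267 and 490), beside a median of 407 (quartiles 271 and 669) over all coding genes with a summit, while the IDR list as a whole ran from 166 to 7478. Their median rank was 4196, beside 3569. Of the 36, 21 were among the strongest 4649 of the 9299 IDR peaks. Among all coding genes, 27.5% had a summit among these 4649 and 43.8% had any IDR summit. Of the 36, 7 were among the strongest 1000, for which the share of all coding genes is not given here.

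A few members stood far above the rest. The strongest summit belonged to the shared promoter of eIF2Bbeta, a subunit of the GTP exchange factor of eIF2. Its signal value was 2129 in replicate 2 and 4500 in replicate 3, rank 3 in each, and 6603 in the IDR list. That summit was 34 bp from the TSS of Ugalt, a UDP-galactose transporter gene, and 685 bp upstream of eIF2Bbeta. A separate, weak pooled peak lay 25 bp upstream of the eIF2Bbeta TSS itself, with a signal value of 85.5 and rank 15175. The peak nearest to that TSS ranked 21238 in replicate 2 and 10827 in replicate 3, so the strong signal was at the Ugalt end of the gap.

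The next strongest lay upstream of eIF4EHP, a cap-binding repressor that works with Bicoid and Brat in the early embryo. The signal value was 1249 in replicate 2 (rank 36) and 2731 in replicate 3 (rank 23), and 3965 in the IDR list (rank 25). The summit was at -237 bp from the eIF4EHP TSS and 139 bp from that of its head-to-head neighbour CG18428. Both replicates thus placed it among their 36 strongest peaks. The sequence at these summits, the pair with the strongest signal, is shown here. Within 100 bp of the summit, 45.8% of bases were G or C at eIF2Bbeta and 22.9% at eIF4EHP. These windows of 201 bp run beyond the printed stretches, which can differ from them in composition. Each stretch is read 5′ to 3′ on the strand of the named gene, in the gap between annotated exons. The source is the RefSeq copy of Release 6, whose coordinates are those of dm6. The capitals mark the 11 bases centred on the summit.
eIF2Bbeta, chrX:2703853-2703946, plus strand: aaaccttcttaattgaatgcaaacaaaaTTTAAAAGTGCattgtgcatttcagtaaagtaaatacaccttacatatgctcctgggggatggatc
eIF4EHP, chr3R:24109137-24109257, minus strand: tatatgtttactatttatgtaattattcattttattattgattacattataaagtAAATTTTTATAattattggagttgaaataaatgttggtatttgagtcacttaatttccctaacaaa

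eIF6, which binds the large ribosomal subunit and keeps it from joining the small one, had a signal value of 720 in replicate 2 (rank 173) and 1836 in replicate 3 (rank 86), with 2545 in the IDR list. Its summit was 103 bp upstream of its TSS. No other coding TSS was nearer. eIF3c, a core subunit of the eIF3 scaffold, had 447 in replicate 2 (rank 507) and 834 in replicate 3 (rank 541), with its summit at -46 bp and 1280 in the IDR list. eEF1gamma, a subunit of the exchange factor of eEF1alpha, had 352 in replicate 2 (rank 822) and 719 in replicate 3 (rank 719), with its summit at -34 bp and 1074 in the IDR list. These 3 summits were closer to the member than to any other coding gene.

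eIF5B, the GTPase of subunit joining, had 299 in replicate 2 (rank 1092) and 671 in replicate 3 (rank 801), and 971 in the IDR list, with the summit at -143 bp. eIF1, which guards start codon choice, had 291 in replicate 2 (rank 1155) and 632 in replicate 3 (rank 891), and 920 in the IDR list. The eIF1 summit was at -271 bp, nearer to RpL28, a ribosomal protein gene on the other strand whose TSS was 110 bp away. A second IDR summit, of signal value 559, lay 70 bp upstream of eIF1. eIF3a, the large scaffold subunit, had 257 in replicate 2 (rank 1456) and 312 in replicate 3 (rank 2766), and 573 in the IDR list, with the summit 80 bp upstream of eIF3a and 10 bp from CG1074.

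By role, the initiator tRNA and start codon factors were nearly complete. The role groups are small, and their counts stand beside 43.8% of all coding genes with an IDR summit. All 3 subunits of eIF2 had an IDR summit, with IDR signal values of 225 for eIF2alpha, 287 for eIF2beta and 358 for eIF2gamma. eIF2alpha, the subunit phosphorylated under stress, had 123 in replicate 2 (rank 4951) and 107 in replicate 3 (rank 8775). eIF2beta had 165 in replicate 2 (rank 3161) and 126 in replicate 3 (rank 7673). Both ranked higher in replicate 2, and eIF2gamma ranked higher in replicate 3. eIF1A, the partner of eIF1, had 428, and eIF2A and eIF2D, factors of alternative initiation, had 474 and 479. eIF5, the GTPase activator of eIF2, had 364. The exchange factor eIF2B had a summit at 3 of its 5 genes, with 241 at eIF2Bdelta and 281 at eIF2Bepsilon beside the strong one at eIF2Bbeta. In each of these 3 the summit was nearer to the head-to-head neighbour, which is roh for eIF2Bdelta (11 bp) and Ocrl, an inositol phosphatase gene, for eIF2Bepsilon (26 bp).

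The eIF3 genes were covered unevenly, with IDR summits at 10 of 16, beside 43.8% of all coding genes. Apart from eIF3c and eIF3a, the IDR signal values were between 223 at eIF3e and 438 at eIF3h. In between stood eIF3f1 (243), eIF3k (248), eIF3l (265), eIF3j (299), eIF3d1 (313) and eIF3m (396). Of these subunits, eIF3d can itself contact the mRNA cap in mammals, and eIF3j is a loosely bound one. The subunit genes eIF3b and eIF3i had pooled peaks below the IDR list. eIF3b had a signal value of 90.6 in replicate 2 (rank 7266) at -604 bp. In replicate 3 it had 111 (rank 8484) at 14 bp, and in the pooled list 133 (rank 11000) at 34 bp. The replicate 2 peak nearest to the TSS, at 197 bp, had 56.4 and rank 11514. The replicate ranks within 9299 thus belonged to peaks at different places. eIF3i had 80.5 in replicate 2 (rank 8250), 40.4 in replicate 3 (rank 17393) and 108 in the pooled list.

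Among the eIF4 genes 7 of 13 had an IDR summit, beside 43.8% of all coding genes. The helicase gene eIF4A had 434, with a further summit of 275 at -100 bp from another of its TSSs. eIF4B, which stimulates eIF4A, had 267. The cap-binding and scaffold genes are given with the duplicated copies below. For elongation, 4 of 5 eEF1 genes had a summit, with 524 at eEF1alpha1, 200 at eEF1delta and 186 at eEF1beta besides eEF1gamma. eEF2, the translocase, had 463, and eEF5, the fly eIF5A that helps the ribosome past proline stretches, had 444.

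Where a factor has several gene copies, the copies often differed in having an IDR summit. With 43.8% of all coding genes having one, unrelated genes also often differ, and their rate was not counted. How alike the copies are in sequence, and so how surely reads were placed, was not measured. In the eIF4E group, the cap-binding proteins, 3 of 7 genes had an IDR summit, a share near the 43.8% of all coding genes. eIF4E1 had 138 in replicate 2 (rank 4233) and 220 in replicate 3 (rank 4367), and 353 in the IDR list, with the summit 8 bp inside the gene. eIF4E6 had 101 in replicate 2 (rank 6429) and 98.7 in replicate 3 (rank 9282), and 186 in the IDR list. The eIF4E6 summit lay at the TSS of the head-to-head gene CG1951 (0 bp) and 62 bp from its own. The third is eIF4EHP. The other members, eIF4E3, eIF4E4, eIF4E5 and eIF4E7, had no peak in any of the lists within 1000 bp of their TSS.

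In 4 of the remaining pairs the copy numbered 1 had an IDR summit and the copy numbered 2 did not. eIF3d1 had a signal value of 94.3 in replicate 2 (rank 6961), 209 in replicate 3 (rank 4624) and 313 in the IDR list, and eIF3d2 no peak in any list. eIF3f1 had 116 in replicate 2 (rank 5411), 132 in replicate 3 (rank 7327) and 243 in the IDR list, and eIF3f2 no peak in any list. Both subunits thus had a peak at the first copy in each replicate and none at the second. eIF4H1, an mRNA-binding helper of eIF4A, had 142 in replicate 2 (rank 4080), 139 in replicate 3 (rank 7043) and 286 in the IDR list. eIF4H2 had only a pooled peak of 46.7 at -867 bp, with a −log10 q-value of 0.387, no peak in replicate 2 and rank 21706 in replicate 3. eEF1alpha1, which delivers aminoacyl tRNA, had 167 in replicate 2 (rank 3083), 351 in replicate 3 (rank 2317) and 524 in the IDR list, with further summits of 240 and 169. eEF1alpha2 had a pooled peak of 145 at -434 bp, with 94.4 in replicate 2 (rank 6950) at -450 bp. Its strongest replicate 3 peak, of 86.3 (rank 10305), lay at a different place, at -92 bp. A separate, weaker pooled peak lay there, at -93 bp. The second copies of eIF4H and eEF1alpha thus had weaker pooled peaks, while those of eIF3d and eIF3f had no pooled peak. For eIF3g neither copy had an IDR summit, although eIF3g1 had a pooled peak of 69.0 at -55 bp, ranked 16181 in replicate 2 and 26171 in replicate 3. The eIF4G pair ran the other way: eIF4G2 had 171 in replicate 2 (rank 2973), 183 in replicate 3 (rank 5352) and 352 in the IDR list, and eIF4G1 had no peak in any list. The TSS of eIF4G2 is also that of CG33111, so the peak cannot be given to eIF4G2 alone. eIF4G1 lies on chromosome 4, where 22 of 80 coding genes had an IDR summit, beside 43.8% of all coding genes.

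The 16 members without an IDR summit fall into 2 sets. For 7 a weaker pooled peak lay within 1000 bp: eEF1alpha2 (145), eIF3b (133), eIF2Bgamma (114), eIF3i (108), eEFSec (82.2), eIF3g1 (69.0) and eIF4H2 (46.7). eIF2Bgamma ranked 8060 in replicate 2 and 15546 in replicate 3, and eEFSec, the selenocysteine factor, ranked 11260 in replicate 2 and had no peak in replicate 3. Those just inside the IDR list were eEF1beta and eIF4E6 at 186 each. The other 9, eIF2Balpha, eIF3d2, eIF3f2, eIF3g2, eIF4E3, eIF4E4, eIF4E5, eIF4E7 and eIF4G1, had no peak in any list, and their nearest pooled summit was 1800 to 28912 bp away. All 9 have a single annotated TSS, as do 32 of the 52 members and 10269 of the 13968 coding genes. Of the 9, 3 (eIF2Balpha, eIF3d2 and eIF3g2) have a head-to-head neighbour, a share near the 36.2% of all coding genes. Each deposited list ends at 30000 peaks and read depth is unknown, so weaker signal at these genes would not be seen. By distance, the farthest member summit counted was that of eIF2Bbeta at 685 bp, and the closest uncounted IDR summits were 1293 bp from eIF2Bgamma and 1319 bp from eIF3g1.

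Shared promoters were common among the members. A promoter was taken as shared when the TSS of another coding gene on the opposite strand lay upstream within 1000 bp. This held for 26 of the 52 members (50%), beside 36.2% of all coding genes. Of these 26, 21 had an IDR summit (80.8%), beside 73.0% of all head-to-head genes. Of the 26 members with no such neighbour 15 had one (57.7%, exact 95% interval 36.9 to 76.6), beside 27.3% of all genes with none. Members with 1 TSS had a summit in 18 of 32 cases (56.2%), beside 36.8% of all coding genes with 1 TSS. Members with several had one in 18 of 20 cases (90%), beside 63.3%. A summit within reach of several TSSs has more chances to be counted.

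**Figure D2:**
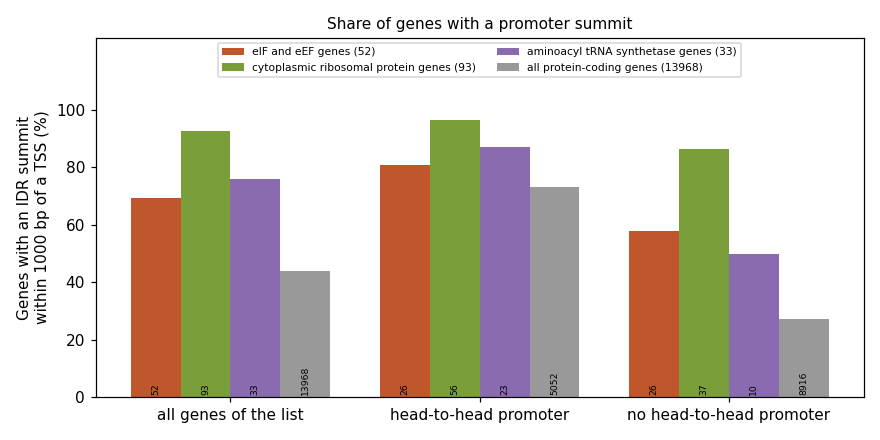
Percentage of genes with an IDR summit within 1000 bp of a TSS, for all genes of a list, for those with a head-to-head neighbour and for those without, with the number of genes at the foot of each bar. The eIF and eEF genes stand at 69.2%, 80.8% and 57.7%, against 43.8%, 73.0% and 27.3% of all protein-coding genes; no test was made between lists.

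At a shared promoter a peak cannot be given to 1 gene. For 25 of the 36 members the own TSS alone was the nearest coding TSS to the strongest summit. For 3 it was tied with that of another gene, and for 8 another gene was nearer. The ties were eIF4G2 with CG33111, eIF5 with CG46312, and eIF2gamma with both Su(var)3-9 and Set. The eIF2gamma case is a compact one: Su(var)3-9, the gene of a histone H3 methyltransferase, starts at the same base, Set, a histone chaperone gene, starts 94 bp away on the other strand, and the summit was 47 bp from each. Its signal value was 119 in replicate 2 (rank 5248) and 233 in replicate 3 (rank 4080). Besides those named above, the summit counted for eIF3l was nearer to Nrx-IV, a septate junction gene, at 118 bp.

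Most summits lay just upstream of a start site. Of the 36 strongest summits 33 were upstream of the nearest own TSS (91.7%), beside 86.4% over all coding genes with a summit. The median position was -75 bp (quartiles -128 and -32), beside -129 bp (quartiles -241 and -45). Within 100 bp of the TSS lay 22 of the 36. Downstream of the nearest own TSS were those of eIF4E1 (8 bp), eIF3j (26 bp) and eIF3h (252 bp). Those of eEF1alpha1, eEF2, eIF2A and eIF5B were upstream of their nearest own TSS but inside the annotated gene, since these genes have several TSSs.

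**Figure D3:**
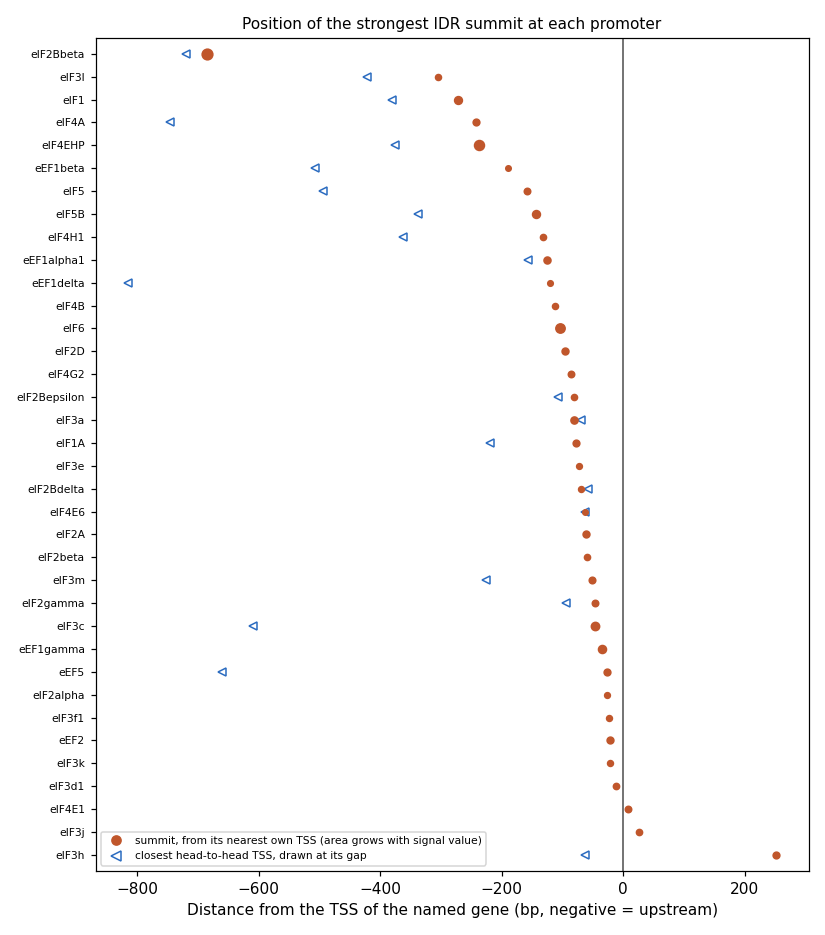
Distance in bp from the nearest own TSS (vertical line) to the strongest IDR summit of each of the 36 members with one (filled circles, larger for higher signal value), negative upstream; open triangles mark the closest head-to-head TSS by the size of its gap. Summits run from -685 bp at eIF2Bbeta to 252 bp at eIF3h, with a median of -75 bp.

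The largest member genes also held peaks inside. eIF5B, 32320 bp long, had 8 IDR summits in introns more than 1000 bp from its own TSSs, with signal values from 271 to 792. eIF4EHP, 45884 bp long, had 6 intronic ones of 172 to 570, and 2 of these lay within 1000 bp of a TSS of Syx1A, a syntaxin gene within the same interval. Other summits inside member genes all lay within 1000 bp of an own TSS.

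Among members in the IDR list, the replicates ranked the peaks alike, with exceptions. Of the 36 IDR peaks 34 were overlapped in both replicate lists, and in 31 both overlapping peaks ranked within 9299. Spearman's rho between the ranks was 0.77 over the 34 members, which share their libraries and, in part, genomic neighbourhoods. The IDR list was itself kept for agreement of ranks between these replicates, so this agreement was in part set by the selection. By the ratio of the ranks, the largest difference was at eIF4B, with a signal value of 30.2 in replicate 2 (rank 19786) and 236 in replicate 3 (rank 4029). Next came eIF2beta, ranked 3161 in replicate 2 and 7673 in replicate 3, and eIF3j, ranked 3249 in replicate 2 and 7541 in replicate 3. eEF1delta also ranked far apart, at 12933 in replicate 2 and 6540 in replicate 3, with a smaller ratio. The strongest eIF3h peak had no overlapping peak in replicate 2, where a peak 241 bp away ranked 3079. The eIF3l peak had 121 in replicate 2 (rank 5073) and no peak of replicate 3 within 1000 bp of its TSS, although it is in the IDR list.

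Of the 6 elements searched at summits, the one furthest above its share at all promoters was the DNA replication-related element (DRE), the sequence TATCGATA bound by DREF at promoters of growth and replication genes. It lay within 100 bp of 12 of the 36 strongest member summits (33.3%, exact 95% interval 18.6 to 51.0), beside 10.9% of the 4204 strongest summits of all coding genes. It was also found at 23 of 86 summits of ribosomal protein genes (26.7%) and 1 of 25 of tRNA synthetase genes (4%), a difference that was not tested. Within 50 bp it was 9 of 36 (25%), beside 6.42%. The 12 genes were eIF1, eIF2alpha, eIF2gamma, eIF2A, eIF3a, eIF3f1, eIF4A, eIF4B, eIF4E6, eIF6, eEF1gamma and eEF1delta. eIF2gamma had 3 copies, so there were 14 in all, at a median distance of 30 bp from the summit.

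The stretches with the DRE in capitals are shown for members of different roles. Each is read on the strand of the named gene, from the RefSeq copy of Release 6 with dm6 coordinates, and ends before any annotated exon. The eIF2gamma stretch holds 2 copies in capitals. Its remaining copy is cut at the start of the stretch and left in small letters.
eIF1, chr3L:3223020-3223077, plus strand: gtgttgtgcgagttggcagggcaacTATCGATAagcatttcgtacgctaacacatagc
eIF2alpha, chrX:16446994-16447031, minus strand: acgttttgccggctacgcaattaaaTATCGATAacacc
eIF2gamma, chr3R:15263459-15263551, minus strand: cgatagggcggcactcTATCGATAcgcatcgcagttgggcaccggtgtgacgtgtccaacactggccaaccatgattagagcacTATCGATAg
eIF3a, chr3R:4433901-4433958, minus strand: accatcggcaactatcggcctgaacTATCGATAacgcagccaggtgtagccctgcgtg
eIF3f1, chr3R:4714183-4714215, minus strand: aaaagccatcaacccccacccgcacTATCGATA
eIF4A, chr2L:5981460-5981517, plus strand: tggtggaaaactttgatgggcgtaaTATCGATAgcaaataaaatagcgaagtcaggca
eIF4E6, chr3R:29027200-29027235, minus strand: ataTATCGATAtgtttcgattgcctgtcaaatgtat
eEF1gamma, chr3R:29220106-29220163, plus strand: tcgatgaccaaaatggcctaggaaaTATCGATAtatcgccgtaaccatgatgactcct

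In these examples the element sat close to the start of the gene at eIF3f1, eIF2alpha and eIF2gamma, where its centre was 4, 9 and 5 bp upstream of the TSS, and farther away at eIF1 (293 bp) and eIF4A (276 bp). All 14 copies were upstream of the nearest own TSS. At eEF1gamma the summit was 4 bp from the centre of the element, and at eIF4E6 8 bp.

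Searched in promoters instead of at summits, from 250 bp before to 50 bp after each TSS, the DRE was present at 15 of the 52 members (28.8%), beside 10.2% of all coding genes. All 15 had an IDR summit, beside 76.6% of the 1420 coding genes with the element. Of the 37 members without it 21 had one (56.8%), beside 40.1% of the other coding genes. The 16 members without a summit thus included none with the element, beside 4.23% of the 7846 coding genes without a summit. The element is rare in that set, so none among 16 is close to this share. A match describes letters in a window and not binding by DREF.

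Other elements were closer to their shares at all promoters, with wide intervals. Motif 7, searched as CAGCNCTA or CATCNCTA, lay within 100 bp of 6 of 36 member summits (16.7%, exact 95% interval 6.37 to 32.8), beside 9.75%. The core of Motif 1, GGTCACACT, was found at 1 (2.78%, at eIF2alpha), beside 6.30%. The E-box CACGTG, the site of Myc, was found at 1 (2.78%, at eEF2), beside 2.12%. TATAAA was at 13 (36.1%), beside 37.5%, and GAGAG at 2 (5.56%, interval 0.680 to 18.7), beside 17.0%. All were searched on both strands, and none of these strings contains another. Member summits had a median of 39.6% G and C within 100 bp, beside 34.3% for all coding genes, and the part of base composition in these shares was not tested. The TCT initiator, known from ribosomal protein genes and searched as CTTT with C or T on each side, within 10 bp of a TSS on the sense strand, was present at 7 of 52 members (13.5%): eIF3f1, eIF3i, eIF3m, eIF4A, eEF1delta, eEF2 and eEF5. It was present at 67.7% of cytoplasmic ribosomal protein genes and 3.03% of all coding genes.

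**Figure D4:**
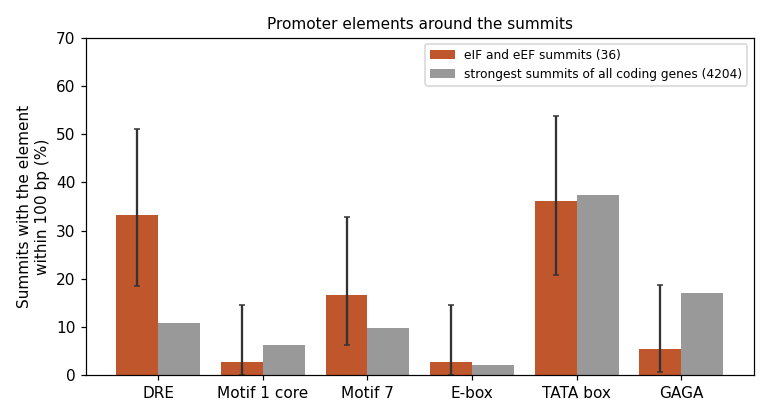
Percentage of strongest promoter summits with each element within 100 bp, for the 36 eIF and eEF members (left bars, with exact 95% binomial intervals) and for the 4204 strongest summits of all coding genes (right bars). The DRE stands at 33.3% of member summits against 10.9%, and the intervals of the other 5 elements include the share over all coding genes.

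Most of the listed genes linked to cytoplasmic translation outside the eIF and eEF names had summits. The 23 listed genes cover termination, recycling, mRNA binding and control of initiation. They also include genes of growth control and transcription (Myc, crc, Rheb, raptor and S6k). Of the 23, 20 had an IDR summit (87.0%, exact 95% interval 66.4 to 97.2), beside 43.8% of all coding genes. The genes were picked by hand with earlier results of these data known, so this share and its interval are not a test. The strongest were Lk6, a kinase of eIF4E (3962, at -963 bp), and larp, an mRNA-binding protein of the TOR pathway (2721, at -335 bp). They were followed by the release factor gene eRF3 (1053) and pix, the ribosome recycling ATPase gene (797). The Lk6 summit was thus near the edge of the 1000 bp window. Whether another gene was nearer to these summits is not given here. The genes cup, Gcn2 and Myc had none. Of 8 mitochondrial translation factor genes 4 had a summit (50%, interval 15.7 to 84.3), a share near the 43.8% of all coding genes, with signal values from 235 to 334.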

How the data were processed

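ChIP-seq of GFP-tagged Nemo was measured in 2 samples of 1 group. The authors deposited narrowPeak lists on dm6 for each replicate, for the pool and for the IDR step. Per the text notes that the authors deposited, each replicate and pooled list was derived from alignments plus 1 additional file, which was also a source of the control-normalised signal. The aligner, peak caller and IDR cutoff are not given in the sources used here. In the deposited lists, column 7 is a score on the caller's scale, and column 9 a −log10 q-value. Read depth is unknown. Genes came from Ensembl release 115 (BDGP6.54), without transposable elements and unplaced sequences. Summits were column 2 plus column 10, given 1-based, and the strongest within 1000 bp of any TSS stood for the gene. Distance to the replicate lists used peak overlap of at least 1 bp. Counts were made with Python 3.11.15, pandas 2.3.3 and scipy 1.17.1, and the counting step was tested on simulated data. No test between lists was run. Members and lists were chosen with earlier results of these data known; the split by TSS number and the promoter search for the DRE were added after the data were examined, as was the choice to set elements at member summits beside the strongest summit of each coding gene in place of all promoter summits. Values in full were given for the strongest 8 members, those without an IDR summit, the duplicated copies and the 3 with the largest ratio of ranks between replicates. Of the listed symbols, Gadd34, Tor and mEFG2 were not matched. The alternatives were each replicate's strongest 9299 peaks, the strongest 4649 IDR peaks, other distances and windows, and all pooled peaks.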

Additional observations from a re-analysis of the deposited data

Results flagged for a closer look

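The pooled peaks outside the IDR list enter none of the main counts, and they held summits at 7 further members: eEF1alpha2, eIF3b, eIF2Bgamma, eIF3i, eEFSec, eIF3g1 and eIF4H2. Their −log10 q-values in the deposited list ran from 0.387 at eIF4H2 to 3.36 at eEF1alpha2. Each had a peak in at least 1 replicate within 1000 bp of a TSS, and eEFSec had none in replicate 3 and eIF4H2 none in replicate 2.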

How the results depend on the processing

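The count of 36 members with an IDR summit was 37 with the strongest 9299 peaks of replicate 2 alone (44.7% of all coding genes) and 36 with those of replicate 3 alone (42.3%). It was 34 within 250 bp (33.8% of all coding genes), 29 when a summit had to be nearest to the member's own TSS, and 32 when the peak itself had to overlap a TSS. For the nearest-TSS and overlap rules the share of all coding genes is not given here, so those counts cannot be set beside 43.8%. With the strongest 4649 IDR peaks the count was 21, beside 27.5% of all coding genes, since fewer peaks enter. With these the median signal value was 474, the median position -80 bp, the summits with a DRE 7 and those nearer to another gene 4. With the replicates alone the median signal value ranged from 146 to 238, on the scale of each list, the median position from -72 to -69.5 bp, and the head-to-head members with a summit from 20 to 21. The summits with a DRE ranged from 10 to 11 and those nearer to another gene from 8 to 9. Within 500 bp the median position was -72 bp. With head-to-head gaps up to 500 bp, 15 members with a summit counted in place of 21. Fewer members have so short a gap, so 15 is not to be set against the 26 head-to-head members. The share of all coding genes at this gap is not given here. In the replicate 2 list alone eEF1alpha2, eIF2Bgamma, eIF3b and eIF3i had a summit and eEF1beta, eEF1delta and eIF4B had none; in replicate 3 alone eIF3b had one and eIF3l had none. No paired analysis was possible because there is 1 group. Counts of 36 genes or fewer give wide intervals.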
